A study of Caenorhabditis elegans with 2 samples.

Results

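The peaks described here come from a relaxed list of peaks and background for CEH-24 tagged with GFP. The list holds background by design, so a peak in it is not by itself a site of binding. The peaks lie at genes that the genome annotation calls ncRNA. This is a catch-all class for transcripts that code for no protein and belong to none of the named RNA families. A peak was taken when its summit, the highest point of the peak, lay within 250 bp of such a gene. Peaks within 250 bp of a tRNA, snoRNA, snRNA, rRNA or piRNA gene were left out, and so were peaks within 1000 bp of a gene of the rpr-, mrpr- or srpr- series. Of the 30000 peaks in the pooled list, 1951 had an ncRNA gene within 250 bp, 344 were left out for another RNA class and 12 more for an rpr-, mrpr- or srpr- gene. The remaining 1595 peaks are 5.32% of the list, with a Wilson 95% interval of 5.07 to 5.58%. Of these, 784 had an overlapping peak in both replicate lists. Their nearest ncRNA genes were 1391 of the 7764 annotated ncRNA genes, and peaks that overlap one another form 1360 separate regions.

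CEH-24 was mapped by chromatin immunoprecipitation with an antibody against GFP, followed by sequencing (ChIP-seq). The worms were of strain OP673, which carries the transgene wgIs673 with GFP and FLAG at the C terminus of CEH-24, in the unc-119(tm4063) background. Whole late embryos of mixed sex were taken 5 h after synchronization by bleaching, as 2 biological replicates of 1 group. Both replicates carry the same transgene and mutation, there is no untagged or second condition among the lists, and the promoter that drives the transgene is not given in the sources used here. Whole animals were used, so no peak can be assigned to a cell type.

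CEH-24 is a homeodomain protein of the NK-2 class, known in Caenorhabditis elegans from pharyngeal and vulval muscle and from head motor neurons. NK-2 homeodomains bind short DNA sites with the core AAGTG. Small RNA genes can be transcribed by RNA polymerase III, which in the tRNA type of gene uses an A box and a B box inside the gene and stops at a run of T. Other ncRNAs are made by RNA polymerase II from promoters of their own, are cut from introns of a host gene, or lie in the shared upstream region of a neighbouring protein-coding gene, where a peak cannot be assigned to either gene.

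The sequences at 7 summits are printed here because they show the kinds of site in the group. They are windows of 201 bp centred on the summit, from the plus strand of ce11 (WBcel235), with matches to the B box core GTTCNANNC, the NK-2 site TNAAGTG, its core AAGTG and the words CGCACA and GAGAGA in capitals on either strand. The window at F52D10.7, chrX:11605849-11606049, holds the highest peak of the group and none of these words. The next 4 hold a B box core inside an ncRNA gene, at C14F11.14 on chrX:6207778-6207978, F36H1.17 on chrIV:11026068-11026268, T28D6.15 on chrIII:11371352-11371552 and K10H10.14 on chrII:14496933-14497133. The window at T13H2.7, chrX:4606608-4606808, is, of the 24 optimal windows, the 1 with the full NK-2 site, and it also holds a long GT repeat. The window at F31E8.13, chrII:6827348-6827548, lies far from any protein-coding start. A match is a description of letters and not a site of binding.
F52D10.7: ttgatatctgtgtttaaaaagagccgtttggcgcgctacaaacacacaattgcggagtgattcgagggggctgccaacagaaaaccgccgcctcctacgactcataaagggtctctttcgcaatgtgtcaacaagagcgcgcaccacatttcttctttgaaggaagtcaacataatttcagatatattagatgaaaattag
C14F11.14: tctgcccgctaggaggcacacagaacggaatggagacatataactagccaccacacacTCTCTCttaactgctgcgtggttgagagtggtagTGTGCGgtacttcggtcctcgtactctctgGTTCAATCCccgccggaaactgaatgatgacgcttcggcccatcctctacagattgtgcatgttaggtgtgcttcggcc
F36H1.17: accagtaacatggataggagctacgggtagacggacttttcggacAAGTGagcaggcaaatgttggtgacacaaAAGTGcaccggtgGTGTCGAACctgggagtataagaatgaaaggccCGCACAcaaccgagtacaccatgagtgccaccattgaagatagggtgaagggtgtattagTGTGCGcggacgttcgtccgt
T28D6.15: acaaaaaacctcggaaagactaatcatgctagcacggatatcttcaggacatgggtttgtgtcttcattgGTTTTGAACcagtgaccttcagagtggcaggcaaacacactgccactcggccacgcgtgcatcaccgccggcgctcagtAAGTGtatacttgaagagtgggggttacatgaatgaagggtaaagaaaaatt
K10H10.14: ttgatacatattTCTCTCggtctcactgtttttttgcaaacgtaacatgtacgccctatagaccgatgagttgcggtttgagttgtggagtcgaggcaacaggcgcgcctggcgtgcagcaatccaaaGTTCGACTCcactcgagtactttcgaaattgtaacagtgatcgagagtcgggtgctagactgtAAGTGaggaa
T13H2.7: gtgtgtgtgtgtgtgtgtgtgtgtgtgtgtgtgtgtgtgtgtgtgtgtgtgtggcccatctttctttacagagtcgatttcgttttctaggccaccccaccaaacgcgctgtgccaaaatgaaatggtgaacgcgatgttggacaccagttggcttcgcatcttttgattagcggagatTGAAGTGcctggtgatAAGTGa
F31E8.13: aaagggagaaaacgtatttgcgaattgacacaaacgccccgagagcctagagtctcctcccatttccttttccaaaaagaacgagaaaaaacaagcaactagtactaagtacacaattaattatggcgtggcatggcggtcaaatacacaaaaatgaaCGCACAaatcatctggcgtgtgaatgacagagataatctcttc

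Peaks at ncRNA genes were present at every height and were more frequent among high peaks than among low ones. The authors' signal value of each peak was used to rank and describe peaks within a list. Replicate values are given beside the pooled ones without a common scale. The optimal list is the set of peaks that passed the authors' reproducibility threshold between replicates, and it holds the highest pooled peaks. The group supplied 9 of the pooled peaks in the upper of 2 equal parts of the optimal list (6.52%, 3.47 to 11.9%) and 15 of those in the lower part (10.9%, 6.70 to 17.2%). It supplied 60 of the 724 peaks ranked 277 to 1000 (8.29%, 6.49 to 10.5%) and 573 of the 9000 ranked 1001 to 10000 (6.37%, 5.88 to 6.89%). Among the 20000 lowest peaks the share was 4.69% (4.41 to 4.99%), and this interval lay below those of the other classes except the uppermost. As a background for the rule itself, 3.71% of positions taken every 100 bp along the nuclear genome would have met it.

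**Figure D1:**
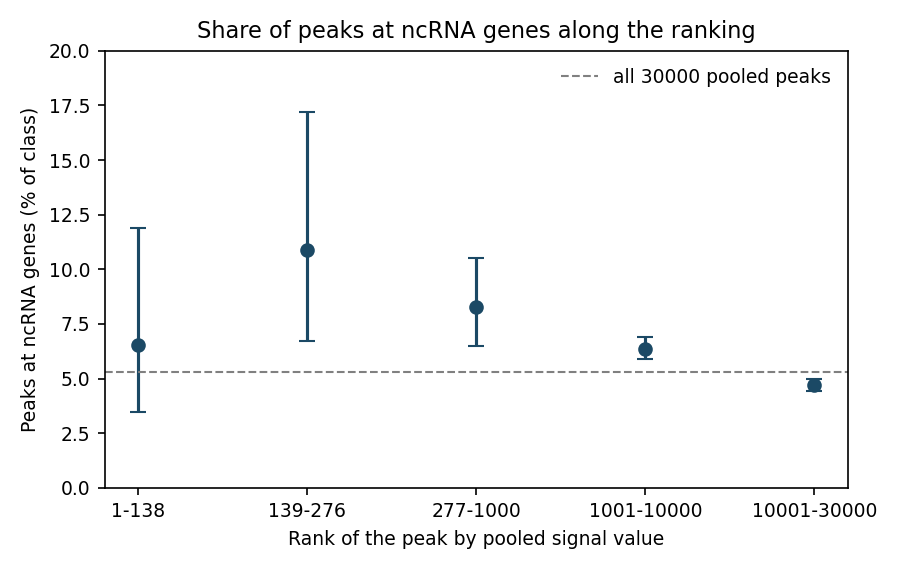
Share of the pooled peaks that lie at ncRNA genes (vertical axis, percent of the class) in 5 classes of rank by pooled signal (horizontal axis), where bars are Wilson 95% intervals over peaks and the dashed line is the share over all 30000. The share was 10.9% in the lower part of the optimal list and 4.69% for ranks 10001 to 30000.

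The median rank of the 1595 peaks was 12366 (95% order-statistic interval 11676 to 12927) where 1 is the highest, and the median over all pooled peaks was 15000.5. Their signal ran from 25.5 to 437 with a median of 37.1, against a median of 34.6 for the other 28405 peaks. The optimal list contained 24 of the 1595 (1.50%, 1.01 to 2.23%), against 0.920% of all pooled peaks. For 35 of them the q-value of the authors was at most 0.05 (2.19%, 1.58 to 3.04%), against 1.40% of all. In each replicate list the same number of highest peaks as the optimal list holds was taken, and an overlap with such a peak in both replicates was found for 22 (1.38%, 0.913 to 2.08%), against 0.900% of all, and 14 of these 22 were in the optimal list. Each background lay below the interval by a small margin, and the intervals treat overlapping peaks as if they were independent.

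Other small RNA genes supply much of the background. Peaks at tRNA genes had a median rank of 2281 and 22.4% of 424 were in the optimal list, and peaks at snoRNA genes had a median rank of 3065.5 with 28.0% of 164. Peaks at lincRNA genes, the annotated long intergenic ncRNAs, had a median rank of 12539 and 1 of 143 in the optimal list (0.699%). The ncRNA peaks were thus placed near the lincRNA peaks in median rank and far below the tRNA and snoRNA peaks. Of the 252 other optimal peaks 97 passed the same exclusions, out of 26765 other pooled peaks that did (0.362%), a share below the interval of the ncRNA peaks. Every optimal peak of the group lay over 500 bp from any gene of the excluded RNA families, and 1, at B0350.67, lay between 501 and 1000 bp from such a gene.

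Over all 1595 peaks, summits lay inside ncRNA genes slightly more often than genome positions that met the rule. Most of the highest peaks lay inside. Of the 1595 summits, 583 lay upstream of the annotated 5′ end (36.6%, 34.2 to 38.9%), 495 inside the gene (31.0%, 28.8 to 33.3%) and 517 downstream (32.4%, 30.2 to 34.8%). Genome positions that met the rule fell upstream in 40.1%, inside in 27.3% and downstream in 32.7%. The lower upstream share of the peaks was not found without replicate 2, where it was 40.7%. Of the 24 optimal peaks, 16 had the summit inside the ncRNA gene (66.7%, 46.7 to 82.0%), 5 upstream and 3 downstream. Peaks ranked 277 to 1000 lay between, with 27 of 60 inside (45.0%, 33.1 to 57.5%). Read the other way, 3.23% of the peaks inside an ncRNA gene were in the optimal list, against 0.858% upstream and 0.580% downstream. For 200 of the 1595 peaks, 5 of them optimal, 2 ncRNA genes were equally near, so their strand and side rest on the choice of the gene with the nearer 5′ end. Without them the downstream count was still 517, now 37.1% of 1395 peaks, and 34.1% lay upstream. The share inside was then 28.9% (26.6 to 31.3%), an interval that holds the 27.3% of genome positions. The genome positions were assigned by the same choice, with ties included.

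**Figure D2:**
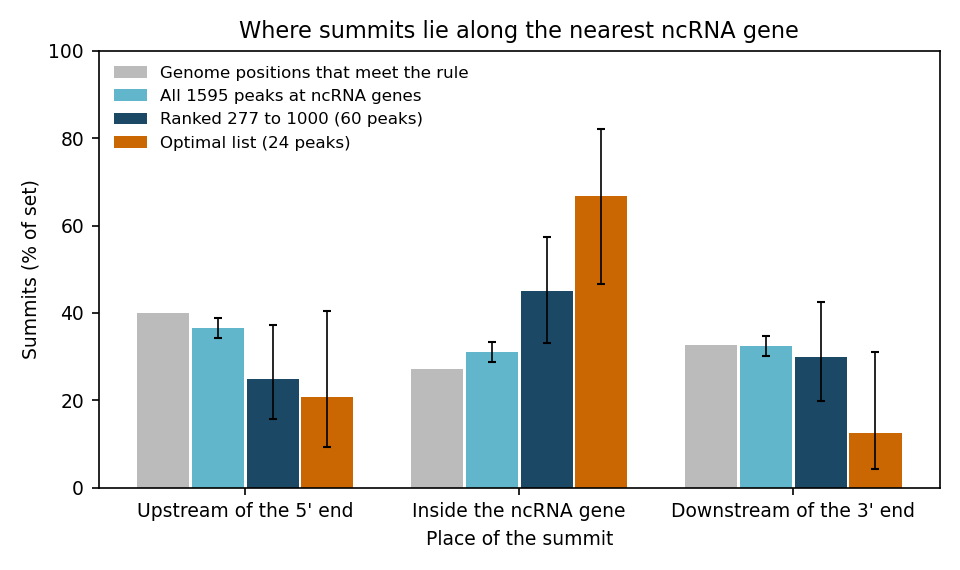
Place of the summit relative to the nearest ncRNA gene (horizontal axis) as a percent of each set (vertical axis), for genome positions that meet the same rule, all 1595 peaks, the 60 ranked 277 to 1000 and the 24 of the optimal list, where lines are Wilson 95% intervals over peaks. Summits inside the gene made up 31.0%, 45.0% and 66.7% of the 3 sets of peaks and 27.3% of the genome positions.

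Strand and host gene divided the group nearly as they divide the annotation, with a few more genes outside any host. The ncRNA gene was on the plus strand for 49.6% of peaks (47.1 to 52.0%) and for 51.0% of all ncRNA genes. It lay within a protein-coding gene of the same strand for 196 peaks (12.3%, 10.8 to 14.0%), within a gene of the opposite strand for 439 (27.5%, 25.4 to 29.8%) and within none for 960 (60.2%, 57.8 to 62.6%). All annotated ncRNA genes divide into 14.3%, 29.4% and 56.3%, and 13.2% of genome positions that met the rule had a same-strand host. In the optimal list 4 of 24 had a same-strand host, 2 an opposite-strand host and 18 none. The X chromosome held 486 of the peaks (30.5%, 28.3 to 32.8%) and 32.5% of the ncRNA genes, while it held 16.1% of the other pooled peaks. The median length of the nearest ncRNA gene was 145 nt, close to the 140 nt of all annotated ncRNA genes, and the optimal peaks had a median of 170 nt.

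All 24 optimal peaks had an overlapping peak in both replicate lists. The optimal list was itself chosen for reproducibility between these replicates, so this overlap is no separate support. Their pooled signal ran from 104 to 437 with a median of 129, their replicate 1 signal from 25.5 to 197 with a median of 75.7 and their replicate 2 signal from 28.5 to 237 with a median of 68.0. In each replicate 19 of the 24 overlapped a peak of that replicate's top set, of the size of the optimal list. These counts are not given here for the other optimal peaks, so they are no trait of the ncRNA peaks. The scale differs between lists, and the replicates share 1 control, so no difference between them was tested. Over the 784 ncRNA peaks with a counterpart in both lists, the replicate signals were related with a Spearman's rho of 0.27 and a Pearson's r of 0.48 on the log2 scale, across peaks that are no replicates of each other and that share the replicate libraries. The last optimal members were F31E8.13 at 106, Y55B1BR.7 at 105 and F59F5.9 at 104, and the first below the list were T14G11.6 at 101, C08F8.13 at 100 and C53A5.18 at 98.0. The optimal list therefore ends among peaks of nearly equal height.

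**Figure D3:**
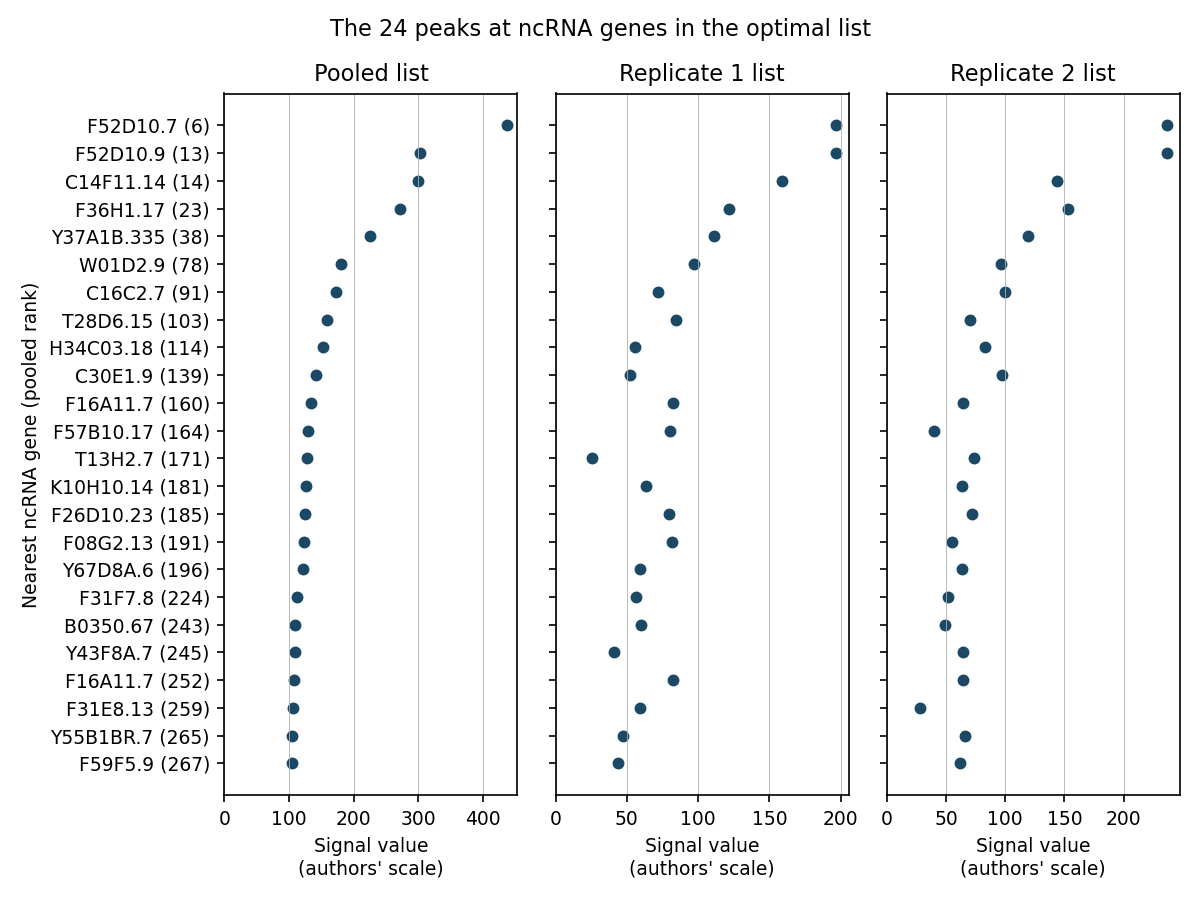
Signal values (horizontal axes, the authors' scale, which differs between lists) of the 24 optimal peaks at ncRNA genes (vertical axis, named by nearest ncRNA gene with the pooled rank) in the pooled list and in the overlapping peak of each replicate. The values fell from 437 to 104 in the pooled list, and T13H2.7 in replicate 1 and F31E8.13 in replicate 2 were the lowest points, at 25.5 and 28.5.

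The largest set among the optimal peaks lay near a protein-coding start and outside any host gene, with 12 peaks from 104 to 437. The 2 peaks at F52D10.7 and F52D10.9 were the highest but overlap the same replicate peaks, at 197 in replicate 1 and 237 in replicate 2. Their summits lay inside these minus-strand ncRNA genes of 137 and 149 nt, and 530 and 732 bp upstream of a start of ftt-2, which encodes a 14-3-3 adaptor protein. Pooled values were 437 (rank 6) and 303 (rank 13), so the pair is 1 region of high signal seen as 2 peaks. The peak at C14F11.14 followed with a pooled value of 300 (rank 14), 159 in replicate 1 and 144 in replicate 2. Its summit lay 43 bp inside a plus-strand ncRNA of 147 nt and 191 bp upstream of a start of T13C5.6, and its B box core is on the ncRNA's own strand.

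Others in this set lay upstream of named protein-coding genes. At F26D10.23 the summit was 132 bp past the 3′ end of a 90 nt ncRNA and 325 bp upstream of hsp-1, which encodes an Hsp70 chaperone, with 125 in the pooled list, 79.4 in replicate 1 and 71.6 in replicate 2. At F59F5.9 it was 371 bp upstream of syd-2, which encodes the liprin of the presynaptic active zone, with 104, 44.1 and 61.5 in the same order. At F31F7.8 it was 370 bp upstream of mrck-1, which encodes a kinase of the myotonic dystrophy kinase family, with 113, 56.6 and 51.5. The ranks in replicate 1 and replicate 2 were 125 and 150 at F26D10.23, 720 and 233 at F59F5.9, and 265 and 421 at F31F7.8.

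At T13H2.7, 780 bp upstream of spat-3, a gene for a RING-finger protein, the replicates were unlike. The pooled value was 128, replicate 2 gave 73.9 (rank 134) and replicate 1 gave 25.5 (rank 9547), so this peak ranked high in replicate 2 alone. At F57B10.17, 62 bp upstream of the trehalase gene tre-1, replicate 1 gave 80.3 and replicate 2 gave 40.3. The remaining 4 of the 12 were W01D2.9 upstream of W01D2.3, H34C03.18 upstream of usp-4, K10H10.14 upstream of dhs-8 and F08G2.13 upstream of F08G2.5. K10H10.14 had 126 pooled, 63.1 in replicate 1 and 63.8 in replicate 2, with the summit 139 bp inside a 284 nt ncRNA that holds a B box core on its own strand. H34C03.18 had 153, 55.9 and 83.0, with the summit 163 bp past the ncRNA.

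Away from coding starts and outside host genes lay 6 optimal peaks from 105 to 272, and the highest were at miRNA genes of the mir-51 family. F36H1.17, an 89 nt ncRNA on chromosome IV, had a pooled value of 272 (rank 23), 122 in replicate 1 and 153 in replicate 2. The miRNA gene mir-51 lay within 250 bp of its summit, and the ncRNA holds both an A box and a B box core on its own strand. Y37A1B.335 on the same chromosome had 225 (rank 38), 111 and 119, and mir-52 lay within 250 bp. Both peaks were high in both replicates, and neither can be assigned to the ncRNA or the miRNA. C30E1.9 had 141, 52.4 and 97.5, with the summit 62 bp into the longest ncRNA gene of the annotation, 14770 nt. B0350.67 had 109, 60.1 and 49.3, at 1244 bp upstream of a start of the ankyrin gene unc-44.

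The lowest of these 6 had unlike replicate ranks or repeated sequence. F31E8.13 had 106 in the pooled list and 59.1 (rank 237) in replicate 1 but 28.5 (rank 5619) in replicate 2. Y55B1BR.7 had 105, 47.1 and 66.1, and 53.6% of the 36-mers in its window occur elsewhere in the genome. Repeated sequence can draw reads from other loci, and its part in this value was not tested.

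Inside host genes lay 6 optimal peaks, 4 on the host's strand with pooled values from 107 to 172 and 2 opposite to it at 109 and 134. C16C2.7, in an intron of ocrl-1, which encodes an inositol phosphatase, had 172 pooled, 72.0 in replicate 1 and 99.9 in replicate 2. Another ncRNA gene was equally near, and the summit also lay 349 bp upstream of a start of eat-16. T28D6.15, a 186 nt ncRNA in an intron of the alpha-tubulin gene tba-7, had 159, 84.5 and 69.9. It holds an A box and a B box core on its own strand, and the summit lay 336 bp downstream of a start of tba-7. Y67D8A.6, in an intron of Y67D8A.2, had 122, 59.0 and 63.9 and lay within 250 bp of mir-58a, the gene of an abundant miRNA. F16A11.7 names a pair of ncRNA genes with the same coordinates on opposite strands in an intron of ppfr-1, a regulatory subunit gene of protein phosphatase 4. The 2 peaks there had pooled values of 134 and 107 and overlap the same replicate peaks, at 82.4 and 64.6, and 47.0% and 31.9% of their 36-mers are repeated. Y43F8A.7, opposite to its host Y43F8A.2, had 109, 41.2 and 64.7, with the summit 597 bp downstream of a start of the host.

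Nearness to protein-coding genes differed between the ncRNA peaks as a whole and the highest of them. A protein-coding start lay within 1000 bp for 650 of the 1595 (40.8%, 38.4 to 43.2%), against 44.5% of the other pooled peaks and 39.2% of genome positions that met the rule. In the optimal list it was 15 of 24 (62.5%, 42.7 to 78.8%), against 57.9% (51.8 to 63.9%) of the 252 other optimal peaks and 87.6% (79.6 to 92.8%) of the 97 among them that pass the same exclusions. Among the peaks near a start, 454 of 650 ncRNA peaks had the summit upstream of it (69.8%, 66.2 to 73.2%), against 52.0% (51.1 to 52.9%) of the other peaks. This share was not counted for genome positions that met the rule. Summits lay between protein-coding genes for 57.7% of all ncRNA peaks and 40.1% of other pooled peaks, and the part of this in the share was not tested. Of the 15 optimal ncRNA peaks near a start 13 had the summit upstream of it (86.7%, 62.1 to 96.3%). Of the 85 other optimal peaks near a start that pass the exclusions 90.6% (82.5 to 95.2%) did. Away from coding starts 9 of 945 ncRNA peaks were optimal (0.952%), against 12 of 14671 other peaks that pass the exclusions (0.0818%). Near starts the shares were 2.31% and 0.703%. The 9 include the peaks within 250 bp of mir-51, mir-52 and mir-58a and the overlapping pair with repeated sequence at F16A11.7. They also include Y55B1BR.7, with 53.6% of its 36-mers repeated. The part of miRNA genes and repeats in this share was not tested.

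Base composition differed between the group and other peaks and between optimal and other members, and its part in the shares above was not tested. The windows had a mean GC content of 39.9% (SD 7.83, n = 1595), against 35.6% in other peaks and 38.1% at genome positions that met the rule, and the optimal ones had 48.1% (SD 4.33, n = 24). Below a GC content of 35%, 0 of 473 ncRNA peaks were optimal, with an upper Wilson limit of 0.806%, and 0.193% of 13502 other peaks that pass the exclusions were. From 35 to 40% GC the shares were 0.568% (0.156 to 2.05%) and 0.441% (0.307 to 0.633%), and from 40 to 45% they were 0.862% (0.294 to 2.50%) and 0.421% (0.263 to 0.674%). From 45 to 50% GC, 10 of 258 ncRNA peaks were optimal (3.88%, 2.12 to 6.99%), against 1.09% (0.701 to 1.70%) of 1738 others. Above that, 9 of 164 were optimal (5.49%, 2.91 to 10.1%), against 0.652% (0.299 to 1.42%) of 920 others. The intervals of the group and of the others overlapped in the 3 classes below 45% GC and did not in the 2 above it.

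Of 8 motifs searched on both strands of the windows, GAGAGA stood furthest from the other peaks. It was present in 347 of the 1595 windows (21.8%, 19.8 to 23.8%), against 10.6% (10.3 to 11.0%) of other pooled peaks and 17.8% of genome positions that met the rule, and the latter value is nearer to the ncRNA windows than to the other peaks. Within the class of 45 to 50% GC it was in 35.3% of ncRNA windows and 21.1% of others. The NK-2 core AAGTG was in 40.8% (38.4 to 43.2%) against 35.8% (35.2 to 36.3%), and the full site TNAAGTG, which contains that core, in 9.91% (8.53 to 11.5%) against 9.03%. Neither share is given here for genome positions that met the rule. The core was in 36.7% (25.6 to 49.3%) of ncRNA windows ranked 277 to 1000. In those ranked 10001 to 30000 it was in 41.5% (38.4 to 44.7%). In the optimal list the core was in 9 of 24 windows (37.5%, 21.2 to 57.3%) and the full site in 1, and these intervals are too wide to place them above or below the group. The core was in 42.1% (36.1 to 48.2%) of the 252 other optimal peaks and 50.5% (40.7 to 60.3%) of the 97 that pass the exclusions. The full site was in 6.35% and 6.19% of these sets. CGCACA was in 6.83% (5.70 to 8.18%) of ncRNA windows, against 5.08% of others and 5.37% of genome positions that met the rule. In each class below 45% GC the ncRNA windows had the lower share. From 45 to 50% GC the shares were 10.5% and 10.1% of others, and from 50% GC they were 18.9% and 13.1%. CGCACA was in 5 of the 24 optimal windows (20.8%, 9.24 to 40.5%). It was in 19.8% (15.4 to 25.2%) of the 252 other optimal peaks and 33.0% (24.4 to 42.8%) of the 97 that pass the exclusions.

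The A box and the B box core had shares in the group whose intervals held the shares in other peaks. The T run was less frequent over all windows, but not in every class of GC content. The B box core was in 109 of the 1595 windows (6.83%, 5.70 to 8.18%), against 7.16% of other peaks and 6.82% of genome positions that met the rule. It was in 4 of 24 optimal windows (16.7%, 6.68 to 35.9%), against 46.0% of the 252 other optimal peaks and 4.12% (1.62 to 10.1%) of the 97 that pass the exclusions. The A box was in 21.1% (19.1 to 23.1%) against 21.2%. Searched inside the ncRNA genes and on their own strand, the B box core was in 2.73% of all 7764 genes, 2.73% of the 1391 nearest to a peak and 4 of the 24 nearest to an optimal peak, namely C14F11.14, K10H10.14, T28D6.15 and F36H1.17. An A box and a B box core together were in 39 of all 7764 (0.502%), in 11 of the 1391 and in 2 of the 24, T28D6.15 and F36H1.17. A run of TTTTT, common in AT-rich DNA, was in 83.6% (81.7 to 85.4%) of windows against 91.1% of others. From 40 to 45% GC it was in 87.6% against 83.5%, and from 45 to 50% GC in 65.5% against 73.4%. The part of GC content in its share was not tested. It was in 12 of the 24 optimal windows, against 85.7% of the 252 other optimal peaks and 94.8% of the 97 that pass the exclusions. TATAAA was in 16.5% (14.7 to 18.4%) against 22.2%.

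**Figure D4:**
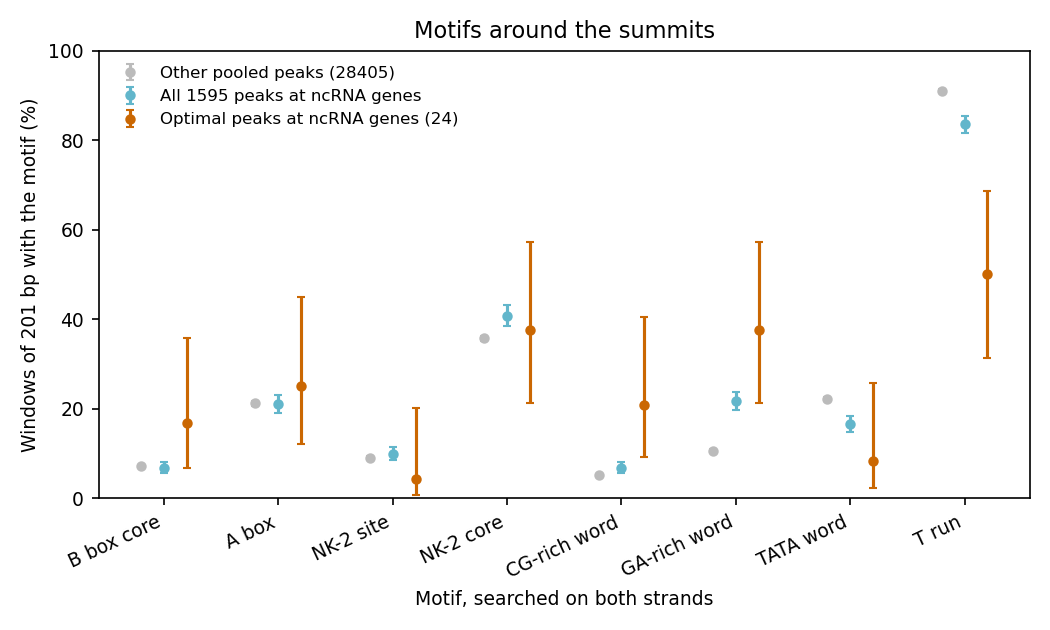
Percent of 201 bp windows that hold each of 8 motifs (vertical axis; the CG-rich word is CGCACA and the GA-rich word GAGAGA) in other pooled peaks, all 1595 peaks at ncRNA genes and the 24 in the optimal list, where bars are Wilson 95% intervals over peaks. GAGAGA was in 21.8% of ncRNA windows and 10.6% of others, while the B box core was in 6.83% and 7.16%.

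The 4 optimal ncRNA genes that are under 100 nt and lie in no host gene were compared with one another by their longest shared words, after their values had been seen. W01D2.9 on chromosome II, plus strand, and F08G2.13 on chromosome II, minus strand, share an 11 nt word near the 5′ end, shown in capitals. Also in capitals is a stretch of T near the 3′ end, TTTTT in W01D2.9 and TTTT in F08G2.13. A TTTTT a few bases further on in F08G2.13 is left in lower case. The sequences are the ncRNA with the following 12 bp, each read on the gene's strand, from chrII:14804795-14804888 and chrII:13834437-13834523.
W01D2.9: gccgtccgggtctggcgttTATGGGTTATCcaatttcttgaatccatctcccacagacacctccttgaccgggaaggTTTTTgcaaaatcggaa
F08G2.13: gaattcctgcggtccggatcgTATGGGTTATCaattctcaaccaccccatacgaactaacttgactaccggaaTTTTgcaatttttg

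W01D2.9, of 82 nt, had a pooled value of 180 (rank 78), 96.9 in replicate 1 and 96.9 in replicate 2, with the summit 91 bp upstream of its 5′ end and 395 bp upstream of W01D2.3. F08G2.13, of 75 nt, had 123 (rank 191), 82.0 and 55.4, with the summit 29 bp inside the gene. The same 11 nt word was in 4 of the 7764 ncRNA genes, and the other two were C18C4.17, with a best pooled value of 30.2, and the 9094 nt gene Y59E1B.1, with 52.4. The genes compared were chosen for their peaks, so nothing about peaks follows from the shared word.

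Of the ncRNA genes nearest to a peak, 185 held 2 or more. C30E1.9 on the X chromosome had 12 peaks. Their pooled values spanned 27.4 to 141, with 39.8 as the median. Of the 12, 1 was optimal and 3 were among the 1000 highest, and 2 of those 3 overlap the same replicate peaks at 52.4 and 97.5. W06H8.5, in the host W06H8.6 on the same strand, had 6 from 28.2 to 57.5, none optimal. F16A11.5, which is opposite to its host ppfr-1 and near the pair at F16A11.7, had 3 with a highest value of 78.1. W10C8.8, WBGene00014492, Y17D7C.9 and Y59E1B.1 also had 3 each, with highest values of 38.5, 59.1, 50.8 and 52.4. Apart from the 3 at C30E1.9 and 1 at F16A11.5, no peak of these genes was among the 1000 highest. Several peaks of C30E1.9 and W06H8.5 overlap one another, so their counts are not counts of separate regions. The peaks of W10C8.8 form 1 chain of overlapping peaks, and so do those of F16A11.5. No peak of W10C8.8 or Y17D7C.9 had a counterpart in the replicate 1 list.

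The well-known ncRNAs on a fixed list, yrn-1, rncs-1, tts-1, tts-2 and lep-5, had no peak among the 1000 highest. Few peaks of the group reached those ranks, as 24 of the 1595 were optimal and 60 ranked 277 to 1000. At tts-1, a long ncRNA known from long-lived and dauer worms, the pooled value was 67.9 (rank 1034), with 38.6 in replicate 1 and 32.2 in replicate 2, and the summit lay inside the gene. At rncs-1, which is known to inhibit Dicer, it was 60.2 (rank 1738), with 38.1 and 28.1, at 228 bp past the 3′ end. At tts-2 the 2 peaks had 54.3 and 36.6 in the pooled list and overlap the same replicate peaks at 37.4 and 32.3. The Y RNA gene yrn-1 had no peak by the rule, and the nearest pooled summit was 4430 bp away. lep-5 is not annotated as ncRNA and could not enter.

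Most windows of the group can be placed uniquely in the genome. All 36-mers occurred once in 1471 of the 1595 windows (92.2%) and in 18 of the 24 optimal ones. In all, 15 windows of the group had 50% or more of their 36-mers repeated, and Y55B1BR.7 was the only optimal one among them.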

How the data were processed

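ChIP-seq peak lists of CEH-24-GFP in 2 late-embryo replicates were used. Per the file headers, the authors deposited relaxed lists of peaks and background for each replicate and for both together, and an optimal list thresholded by the irreproducible discovery rate, each on ce10 and ce11. The ce11 lists were analysed, and no coordinate was converted. No source used here names the aligner or the peak caller. The signal value of each peak is the authors' own and its scale is not given, and the −log10 q-value is also as deposited. Lists give no reads, so depth is unknown, and per the file headers both replicates share 1 control.

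Summits were compared with Ensembl release 115 genes (WBcel235), and windows were read from the RefSeq genome, with pandas 2.3.3, numpy 2.4.6 and scipy 1.17.1 under Python 3.11.15. A host is a protein-coding gene that contains the ncRNA gene. A replicate value is the highest replicate peak that shares 1 bp or more. Wilson 95% intervals cover counting error only, and neighbouring peaks are not independent. No test between groups was possible with 1 group. The distance, side and motif code was tested on simulated data. Members, lists and motifs were chosen with earlier results of these data known. Named genes are those of every optimal peak (which include the 20 highest), the 3 next peaks, yrn-1, rncs-1, tts-1, tts-2, lep-5 and genes with 3 peaks or more.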

Additional observations from a re-analysis of the deposited data

How the results depend on the processing

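No paired analysis was possible because there is 1 group. Of 38 alternative values, 24 stayed within 1.5 times of the count or within the interval of the share. The optimal count of 24 became 9 with the upper of 2 equal parts of the list, as fewer peaks were admitted, and stayed between 18 and 35 otherwise, with 21 to 27 from 1 replicate alone. The count of 22 in the top of both replicates became 35 with a top set 2 times as long in each replicate. The median rank became 13197 with a window of 500 bp and was 12437.5 to 12848 without 1 replicate.

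The share upstream of the ncRNA start was 28.4% with a window of 100 bp and 42.5% with 500 bp. Genome positions were not counted at these windows, so the part of the window in this change was not tested. It was 23.8% in the 1000 highest ranks, 35.5 to 40.7% without 1 replicate (40.1% of genome positions), and 34.1% with 1 nearest gene, an alternative chosen after seeing the data, as was that of windows with no repeated 36-mer (18 optimal peaks). A coding start was near 57.1% of peaks ranked 1 to 1000, 25.5% with a limit of 500 bp and 39.5 to 40.9% without 1 replicate. The B box core was in 13.1% of those ranks, 3.13% within 50 bp and 5.38 to 6.82% without 1 replicate. A same-strand host was found for 10.7% of those ranks and 13.2 to 13.8% without 1 replicate. The cause of the changes with rank was not tested. Depth is unknown, so an absent peak does not show absent binding.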

Other observations

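The 60 peaks ranked 277 to 1000 had pooled values from 68.7 to 101 with a median of 78.3. In the replicate lists 56 of them had a peak in both, with medians of 42.0 in replicate 1 and 43.8 in replicate 2. This count is not given here for other peaks of these ranks, so it is no trait of the ncRNA peaks. The genes named here were chosen after their values were seen. Opposite-strand hosts included his-24, a gene for a linker histone, where M163.16 had 94.3 in the pooled list, 23.5 in replicate 1 and 73.8 in replicate 2. They also included peb-1, a gene for a pharyngeal transcription factor, where T14F9.14 had 90.9, 48.4 and 48.0. At cla-1, a gene for an active zone protein, F45E4.15 had 84.7, 55.0 and 19.1. The scale differs between lists, so these replicate values were not compared.

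Upstream of ribosomal protein genes, C49H3.15 had a pooled value of 84.3 at 112 bp from rps-2, with 47.1 and 42.0 in the replicates, and F54C9.17 had 83.4 at 390 bp from rpl-5, with 28.7 and 53.8. ZK265.11, within the homeobox gene ceh-8 on the same strand, had 76.0, 41.0 and 40.5. W05E10.13, at 1154 bp upstream of the homeobox gene ceh-32, had 69.5, 52.9 and 18.2.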
